A study of Mus musculus with 4 samples.

Results

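Early erythroid progenitors made up 1749 of the 11632 cells that were kept from 4 single-cell RNA libraries of mouse spleen, and they lay among the 4256 cells without a UMI (unique molecular identifier, a counted RNA molecule) of the T cell receptor genes Cd3d, Cd3e and Cd3g. They were chosen by their RNA. A member had at least 2 UMIs of Klf1, and the 4 adult hemoglobin genes Hba-a1, Hba-a2, Hbb-bs and Hbb-bt (Hb) took under 1% of its UMIs. Cells were kept from 500 detected genes and 1000 UMIs upward if mitochondrial genes took no more than 10% of the UMIs. The 2 classes set beside them were 1349 later erythroid cells, which had Klf1 with an Hb share of 1% to under 10% or an Hb share of at least 10%, and 1158 other Cd3-negative cells. Since Klf1, the Hb genes and Cd3 made these classes, contrasts between classes are given as descriptions, without a test.

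The 4 recipients were lethally irradiated BALB/c mice that were given WEHI-3B leukemia cells, a myelomonocytic BALB/c line, and C57BL/6 bone marrow, followed by donor T cells on day 2. The donors of 2 recipients were Havcr2fl/fl;E8icre/+, in which the E8i promoter drives Cre in CD8+ T cells and so deletes Havcr2, the gene of TIM-3. The donors of the other 2 recipients were Havcr2fl/fl, so that the donors of all 4 recipients carried floxed Havcr2 and none was wild type. Spleens were taken on day 23, T cells were enriched with a pan-T kit, and cells were stained with an oligonucleotide-tagged antibody to H-2Kb, the donor class I molecule. The study also speaks of a sort of donor T cells, which the labels do not name. Whether these libraries were sorted is unresolved, and a sort would bear on every share given here. The labels call the cells T cells, but 4256 of the kept cells had no Cd3 UMI. Marrow and T cells of a recipient were of the same donor genotype.

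Red cell precursors descend from multipotent progenitors through Kit-positive erythroid progenitors that respond to erythropoietin. KLF1 and GATA1 then switch on the genes of globin, heme and the red cell membrane, while GATA2, KIT and MYB are lost. In mice the spleen takes part in red cell production, above all after irradiation and marrow transplantation, when stress progenitors expand there.

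Klf1 (ENSMUSG00000054191, chr8:84901928-84905291, plus strand, mm10/GRCm38) encodes the erythroid factor that chose the members, and Mt2 (ENSMUSG00000031762, chr8:94172664-94173568, plus strand) encodes a metallothionein, a metal-binding protein, and was among the genes that most set them apart. Their upstream sequences, from RefSeq on GRCm38.p6, are shown because Klf1 chose the members and Mt2 was higher in them than in both other classes. The Klf1 sequence is chr8:84901732-84901927, the 196 bases before the annotated gene start, and the Mt2 sequence is chr8:94172368-94172617, the 250 bases before its RefSeq start. Capitals mark, on either strand, a GATA box (GATAA or GATAG, preceded by A or T), which GATA1 and GATA2 recognise, or the core of a metal response element (TGCACNC or TGCGCNC), which the metal-sensing factor MTF1 recognises.
Klf1: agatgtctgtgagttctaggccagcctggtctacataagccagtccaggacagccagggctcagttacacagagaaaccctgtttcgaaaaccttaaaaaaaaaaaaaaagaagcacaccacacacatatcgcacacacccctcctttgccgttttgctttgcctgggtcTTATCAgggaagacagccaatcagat
Mt2: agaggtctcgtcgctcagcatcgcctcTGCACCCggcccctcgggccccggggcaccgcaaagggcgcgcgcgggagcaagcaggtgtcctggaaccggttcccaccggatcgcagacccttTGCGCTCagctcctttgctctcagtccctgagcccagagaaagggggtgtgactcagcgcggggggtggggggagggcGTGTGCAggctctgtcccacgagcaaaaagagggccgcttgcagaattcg
The Klf1 sequence held 1 GATA match, in reverse orientation, and 23.3% of 27025 promoters held at least 1 in the same window. The Mt2 sequence held 3 metal response matches and no GATA match, against 21.3% and 27.1% of promoters with at least 1 match in the window of 250 bases. These matches describe letters in a window and do not show that a factor bound there.

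Values of the 4 libraries are given throughout in the order Havcr2fl/fl;E8icre/+ replicate 1 and replicate 2, then Havcr2fl/fl replicate 1 and replicate 2. The libraries held 38386626, 31449644, 17693991 and 55045903 gene UMIs in 4328, 3208, 1511 and 6737 barcodes, of which 3431, 2551, 1213 and 4437 were kept. Early erythroid cells numbered 348, 158, 61 and 1182, so that Havcr2fl/fl replicate 2 alone supplied 67.6% of them and Havcr2fl/fl replicate 1 supplied 3.49%. Havcr2fl/fl replicate 2 stood apart in other ways too. Its T cells had the shallowest median depth (3111 UMIs, against 4593, 5851.5 and 6642), and Car1, an erythroid gene, had a UMI in 26.7% of its Cd3-positive cells, against 8.64%, 5.89% and 6.31% in the other libraries. Among Cd3-positive cells with at least 5000 UMIs, thinned to that number, the share was 39.2% of 513 cells in this library, and 13.6% of 1086, 5.30% of 1265 and 5.63% of 640 in the others. Shares at 5000 UMIs are given below in the same way, without the shallower cells. Free erythroid RNA in droplets is a known source of such counts, and its part in the results from this library was not tested.

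Among Cd3-negative cells the share of early erythroid cells was 38.3% (95% Wilson interval, 35.2% to 41.5%), 24.3% (21.2% to 27.8%), 17.8% (14.1% to 22.2%) and 50.1% (48.1% to 52.2%). The intervals cover counting error only, and the groups overlapped, with the lowest and the highest share both in Havcr2fl/fl recipients. The mean share was 31.3% ± 9.89 (SD, n = 2) in Havcr2fl/fl;E8icre/+ and 34.0% ± 22.8 (SD, n = 2) in Havcr2fl/fl recipients, a difference of -2.66 percentage points (two-sided exact permutation test, p = 1, where 2 against 2 libraries cannot give less than 0.333). Of all kept cells, early erythroid cells made up 10.1%, 6.19%, 5.03% and 26.6%. The difference of means was -7.67 percentage points (two-sided exact permutation test over 2 against 2 libraries, p = 1). Without Havcr2fl/fl replicate 2 both differences changed sign, to 13.5 and 3.14 percentage points, and without Havcr2fl/fl;E8icre/+ replicate 2 the first became 4.33. When every cell was thinned to 5000 UMIs before the rule was applied, and shallower cells were left out, the mean shares of Cd3-negative cells were 13.9% and 17.7% and those of kept cells 5.44% and 13.0%, so that the size of the class depended on depth. The T cell enrichment came before the counting, so that neither share gives the number of these cells in the spleen.

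**Figure D1:**
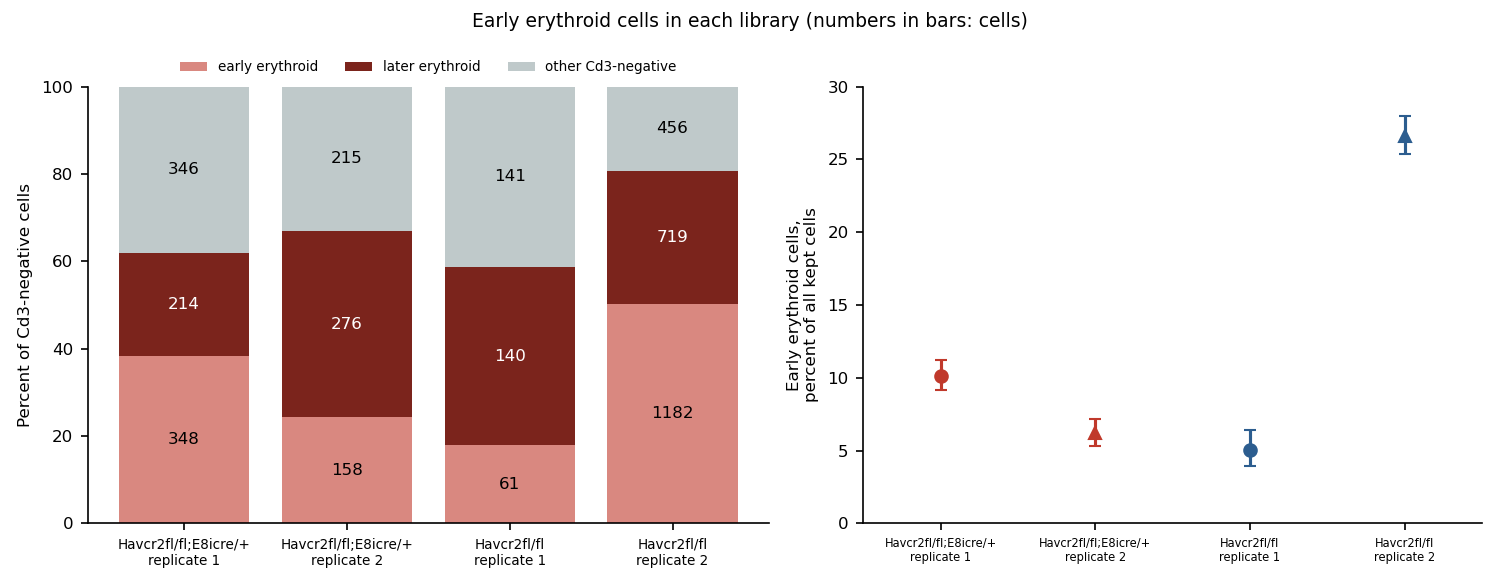
Left, percent of Cd3-negative cells in each class by library, with the cell numbers in the bars; right, early erythroid cells as a percent of all kept cells, with 95% Wilson intervals, red for Havcr2fl/fl;E8icre/+ and blue for Havcr2fl/fl. Havcr2fl/fl replicate 2 lies at 26.6% and the other 3 libraries between 5.03% and 10.1%.

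The members were deeply sequenced cells, and the rule itself rested on raw Klf1 UMIs. At an Hb share under 1%, the median depth of Cd3-negative cells was 12101 UMIs with no Klf1 UMI, 13298 with 1, 14158 with 2 and 36065 with 10 or more. By library, the median UMI number of members was 32496.5, 47722.5, 52372 and 22187, against 5311.5, 6180.5, 9312.5 and 7031 in later erythroid cells and 4593, 5851.5, 6642 and 3111 in Cd3-positive cells. In every library they were the deepest class. Their median Hb share was 0.0146%, 0.0149%, 0.0203% and 0.0430%, close to that of the Cd3-positive cells of the same library (0.0120%, 0.0188%, 0.0199% and 0.0533%), above it in replicate 1 of both genotypes and below it in replicate 2 of both. No member had a tag count below its library's lower limit (3 median absolute deviations under the median of log10 counts), and the lowest tag counts were 655, 675, 1166 and 180. The limit is on raw counts, and per 10000 UMIs the median tag count of members was 1760, 1515, 1565 and 1618, against 3270, 3164, 3369 and 3657 in Cd3-positive cells. Of the 17 barcodes shared between kept cells of different libraries, 0 belonged to members.

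The label came with 4 markers, Klf1, Car1, C1qtnf12 and Mt2, of which Klf1 had chosen the cells. The other 3 were named with earlier results of these data known. Their levels are therefore a description and no independent check of the label. Levels are in counts per 1000000 UMIs outside the 4 Hb genes (CPM), from UMIs summed per library and class, and each is compared only for the same gene between classes. Car1 (chr3:14766216-14808368), carbonic anhydrase 1, had 2138, 2222, 3231 and 1998 CPM in early erythroid cells, against a mean of 1161 ± 371 (SD, n = 4) in later erythroid and 268 ± 276 in other Cd3-negative cells. C1qtnf12 (chr4:155962318-155966629), a secreted protein of the C1q/TNF family, had 765, 657, 754 and 1030 CPM, against 331 ± 182 and 86.7 ± 91.4. Both genes were higher in the early class than in either of the other classes in each of the 4 libraries. Mt2 had 602, 625, 798 and 367 CPM, against 145 ± 48.8 in later erythroid and 54.0 ± 44.4 in other Cd3-negative cells. Thinned to 5000 UMIs, Mt2 was detected in 86.5%, 85.2%, 93.2% and 77.8% of 340, 155, 59 and 1176 members, and in 9.58%, 4.03%, 5.16% and 25.7% of 1086, 1265, 640 and 513 Cd3-positive cells, which should lack erythroid RNA. Without thinning the shares were 96.8%, 94.3%, 98.4% and 97.9% of members and 6.58%, 4.78%, 5.17% and 13.2% of Cd3-positive cells. Klf1 itself had 264, 247, 237 and 312 CPM in early and 483, 681, 514 and 482 CPM in later erythroid cells, so that the early class held less of it than the later class. All 3 markers that the rule did not name were thus highest in the early class by mean, although Cd34, a gene of earlier stem and progenitor cells, was near 0 in members (0.262, 0.557, 1.98 and 0.551 CPM).

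The members next to the limits show what the rule cut. Pooled over libraries, the 135 members with exactly 2 Klf1 UMIs had 1992 CPM of Car1, 578 of C1qtnf12, 119 of Mpo (myeloperoxidase of granulocyte precursors) and 520 of Mcpt8 (a basophil protease), and the 169 cells just outside, with 1 Klf1 UMI, had 1283, 339, 701 and 1618 CPM. Both bands therefore held erythroid and non-erythroid RNA, with more of the latter outside. At the Hb limit the change was gradual. The 137 members with an Hb share of 0.5% to under 1% had 47.2 CPM of Alas2, and the 130 cells with 1% to under 2% had 106 CPM.

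Against later erythroid cells, early erythroid cells had more RNA of ribosome assembly and of progenitor genes, and less of heme synthesis, red cell membrane and terminal erythroid genes. Of 7607 genes with at least 10 CPM on average in either class, 718 (9.44%) were at least 2-fold higher in the early class in all 4 libraries and 639 (8.4%) were at least 2-fold lower. The median log2 ratio over all 7607 was 0.43, computed with 1 CPM added to each value. The 718 depended on the CPM added and on whether Hb counted in the total, as given in the last section. Counts with a library left out are also given there. The classes were cut on Hb share, so that a difference in genes that follow hemoglobin was built in, and the list counts below are descriptions.

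Ribosome biogenesis was the list with the highest share of genes above later cells, with 13 of 15 higher, none lower and a median log2 ratio of 1.73. Ncl, which encodes the nucleolar protein nucleolin, had 2941 ± 176 (SD, n = 4) against 969 ± 201 CPM, and Npm1, nucleophosmin, had 3654 ± 351 against 1050 ± 331 CPM. Myc, the factor that drives growth and ribosome synthesis, had 143 against 43.0 CPM on average. Srm, which makes the polyamine spermidine, was the gene with the highest median ratio among genes with at least 50 CPM in the early class, with 219, 204, 202 and 209 CPM in early against 72.0, 26.4, 37.6 and 30.8 CPM in later cells (median log2 ratio 2.56). Its ranges in the 2 classes did not meet.

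Of the progenitor list, 5 of 7 genes with enough RNA were higher than in later cells and none was lower (median log2 ratio 1.67). Kit, the stem cell factor receptor, had 75.7, 79.3, 97.6 and 43.1 CPM in early against 33.0, 12.2, 17.4 and 4.07 CPM in later cells. Myb, a factor that keeps progenitors proliferating, had 331, 376, 315 and 196 CPM against 116, 70.9, 49.5 and 29.3 CPM. Gata2, the GATA factor of progenitors, had 50.9, 47.4, 46.0 and 17.1 CPM against 18.6, 14.2, 11.002 and 5.09 CPM. In all 3 genes Havcr2fl/fl replicate 2 was the lowest library in both classes. Ly6a and Muc13 completed the 5. Of the stress erythropoiesis list only Zfp36l2, an RNA-binding protein that keeps progenitors self-renewing, passed, higher in the early class, of 8. Ifngr1, a chain of the interferon-gamma receptor, was also among the 10 genes with the highest ratio, with 107, 104, 106 and 82.6 CPM in members.

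Among factors of the erythroid program, 6 of 16 were lower than in later cells and none was higher (median log2 ratio -0.93). They were Hemgn, Tal1, E2f2, Klf3, Sox6 and Nfe2, and Sox6, a factor in globin silencing, had 17.9 ± 6.31 against 563 ± 182 CPM (SD, n = 4). Gata1 was not among them, with 120, 133, 116 and 133 CPM in early and 192, 231, 228 and 190 CPM in later cells. Epor, the erythropoietin receptor, had 95.1, 75.4, 93.3 and 101 CPM against 198, 189, 159 and 127 CPM, which also fell short of 2-fold in some libraries. The early class thus carried Gata1 and the receptor in every library. Downstream of the receptor, Stat5a and Ptpn6 were higher, and Pim1, Cish and Bcl2l1 lower, among 10 genes with enough RNA. Bcl2l1, which encodes the survival protein BCL-XL, had 4.63, 2.78, 3.64 and 2.94 CPM in early against 269, 258, 333 and 55.8 CPM in later cells, and its values in the early class were also below those of the other Cd3-negative cells (10.5, 9.05, 8.66 and 5.08 CPM).

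Heme synthesis was lower for 11 of 15 genes and higher for none (median log2 ratio -2.64). Alas2, the erythroid first enzyme of the pathway, had 3.32, 4.17, 9.26 and 8.93 CPM in early and 1796, 2310, 2466 and 645 CPM in later cells, the lowest median ratio against later cells among genes outside Hb with at least 50 CPM in those cells (log2 -8.31). Among iron genes only Tfrc, the transferrin receptor, passed the 2-fold rule of 11 measured, with 349 ± 84.4 against 1779 ± 609 CPM (SD, n = 4). The membrane and blood group list was lower for 14 of 18 genes (median log2 ratio -2.91), among them Slc4a1, the anion exchanger band 3, with 16.0 ± 4.66 against 2851 ± 1167 CPM (SD, n = 4). Of the genes of terminal maturation, 13 of 14 were lower (median log2 ratio -5.38).

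Outside Hb, summed cell cycle genes were lower in early than in later erythroid cells in each library, in both phases. Hb took a median of 43.1%, 46.1%, 58.5% and 14.3% of the UMIs of later erythroid cells. With Hb counted in the total, the S phase order would reverse in Havcr2fl/fl replicate 1 and the G2 and M phase order in no library. S phase genes summed to 3284 ± 332 against 4915 ± 988 CPM (SD, n = 4). G2 and M phase genes summed to 3693 ± 382 against 11260 ± 1508 CPM. Of 18 S phase genes 2 were lower in the early class by the 2-fold rule (Rrm2 and Slbp, list median log2 ratio -0.25). Of 18 G2 and M phase genes 8 were lower (list median -1.24). Of all genes 8.4% were lower in this contrast, and the difference between the 2 lists was not tested. Mki67, a marker of cycling cells, had 831, 734, 829 and 855 CPM in early against 3886, 3350, 2676 and 2158 CPM in later cells. The summed S phase genes nonetheless reached 3336, 2870, 3253 and 3678 CPM in members, above the Cd3-positive cells of the same libraries (1898, 1399, 1419 and 2418 CPM). Cdkn1b, Cdkn2c and Cdkn2d, which encode inhibitors of cyclin-dependent kinases, were lower in the early class, 3 of 4 with enough RNA.

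In the interferon list Gbp3 and Psmb8 were higher and Isg15 and Ifit1 lower, of 16 genes, near the shares of all genes in this contrast (9.44% and 8.4%), with a list median of 0.20. Isg15, a ubiquitin-like protein induced by interferon, had 173, 112, 120 and 120 CPM in early and 2465, 3643, 2439 and 613 CPM in later cells. MHC class II genes H2-Aa, H2-DMa and H2-DMb1 were higher, 3 of 6, and the whole MHC class II list summed to 635 ± 81.4 against 269 ± 115 CPM (SD, n = 4). Of the MHC class I list only Tap2, a peptide transporter subunit, passed the rule of 8 measured. Short of it, B2m (1529 ± 194 against 2297 ± 248 CPM) and H2-D1 (789 ± 69.2 against 1165 ± 77.5 CPM) were lower in each library (SD, n = 4). With Hb counted in the total, both would be higher in the early class in Havcr2fl/fl replicate 1. H2-K1, Tap1, Tapbp and Nlrc5 were higher in each library.

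**Figure D2:**
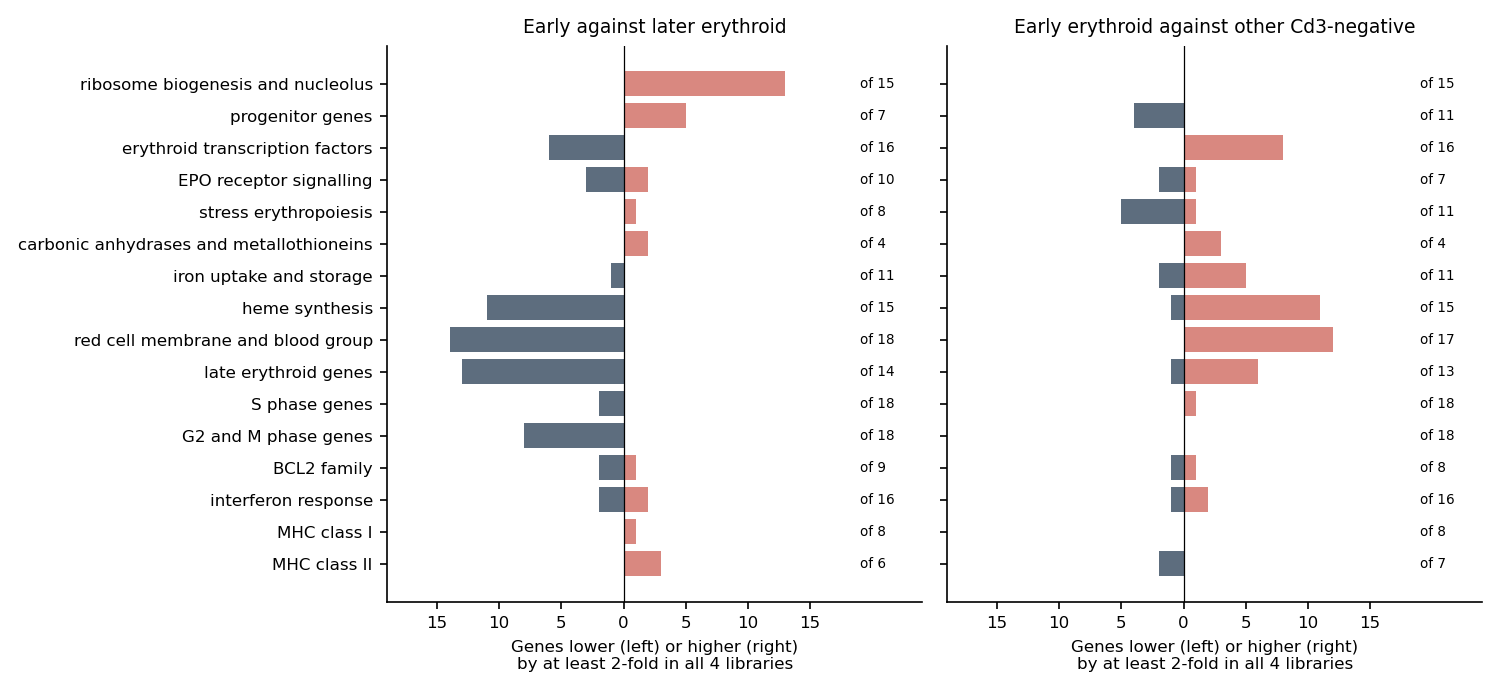
Number of genes of each list that were at least 2-fold lower (left of 0) or higher (right of 0) in early erythroid cells in all 4 libraries, against later erythroid cells (left panel) and other Cd3-negative cells (right panel), with the number of measured genes beside each bar. Heme and membrane genes lie on the low side against later cells (11 of 15 and 14 of 18) and on the high side against other cells (11 of 15 and 12 of 17).

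Binning all erythroid cells by Hb share placed the members at one end of a series. Within the early class itself, cells with an Hb share under 0.05% (282, 130, 44 and 643 cells) differed from those with 0.2% to under 1% (22, 11, 13 and 270 cells). Mean Kit was 90.1 ± 23.1 CPM (SD, n = 4) in the lowest bin and 10.3 ± 12.8 CPM in the highest bin of the early class, Gata2 was 49.6 ± 16.3 and 4.11 ± 3.47 CPM, and Myb was 371 ± 67.5 and 39.0 ± 17.1 CPM. Progenitor genes thus had less RNA within the early class where the Hb share was higher. Mki67 (687 ± 36.6 and 1452 ± 113 CPM) had more. Gata1 went from 118 ± 9.63 to 171 ± 24.7 CPM. Beyond the limit, in cells with an Hb share of 1% to under 10%, Kit (31.7 ± 23.9 CPM), Gata2 (23.4 ± 13.3 CPM) and Myb (114 ± 67.0 CPM) were on average higher again than in the adjacent members, so that these 3 genes did not fall steadily along the series. In Havcr2fl/fl replicate 2, which held 321 of the 370 cells of that bin, Kit went from 5.59 to 4.72 CPM, Myb from 50.1 to 31.3 CPM and Gata2 from 3.25 to 4.08 CPM. Since the Hb share set the bins, these are descriptions, and genes that share a course with hemoglobin are not shown to be controlled with it. The bin of 0.05% to under 0.2% left out Havcr2fl/fl replicate 1, which had 4 cells there.

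**Figure D3:**
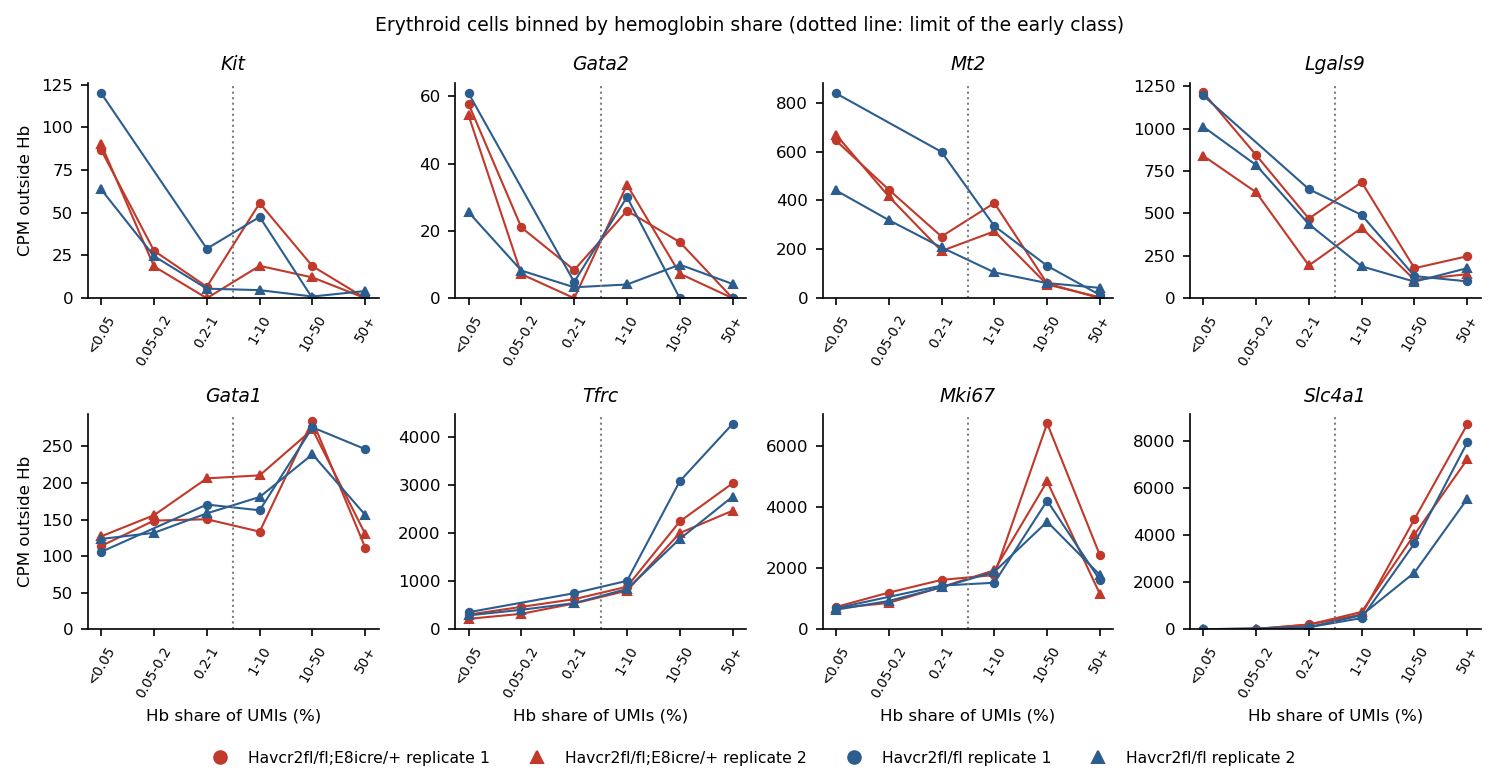
CPM of 8 genes against the Hb share of UMIs in erythroid cells, one line per library (red for Havcr2fl/fl;E8icre/+, blue for Havcr2fl/fl; circles for replicate 1, triangles for replicate 2), for bins with at least 10 cells; the dotted line marks the 1% limit of the early class. Mean Mt2 goes from 649 CPM in the lowest bin to 14.8 CPM in the highest, and mean Slc4a1 from 1.36 to 7337 CPM.

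Against the other Cd3-negative cells, which carried monocyte, granulocyte, basophil and B cell RNA, the members stood out by the erythroid program. Markers of monocytes and macrophages reached 10 UMIs in 45.1%, 47.4%, 63.8% and 35.1% of the other cells and markers of granulocyte-monocyte progenitors in 43.4%, 42.3%, 43.3% and 30.3%. Of 8360 genes 429 (5.13%) were at least 2-fold higher in all 4 libraries and 1104 (13.2%) at least 2-fold lower, with a median log2 ratio of 0.20. Erythroid factors were higher for 8 of 16 (Gata1, Zfpm1, Tal1, Ldb1, Gfi1b, Bcl11a, Mllt3 and Hemgn, list median 1.11), heme genes for 11 of 15 (1.82) and membrane and blood group genes for 12 of 17 (2.38). Iron genes were higher for 5 of 11, among them Tfr2 and Steap3. Epor had 95.1, 75.4, 93.3 and 101 CPM in members against 6.58, 3.25, 2.02 and 25.6 CPM in the others. Rhd, a blood group gene, had 179, 172, 189 and 304 CPM and a median log2 ratio of 4.54, beside 4.55 for Cldn13, a claudin. Alas1, the first heme enzyme of non-erythroid cells, was lower (12.1 against 79.4 CPM on average). Slc4a1 and Alas2 were on average not higher than in the other cells, at 16.0 ± 4.66 against 24.6 ± 12.7 CPM and 6.42 ± 3.11 against 10.3 ± 5.52 CPM (SD, n = 4). By library, Slc4a1 was higher in members only in Havcr2fl/fl;E8icre/+ replicate 1 (12.4 against 8.72 CPM). Alas2 was higher only in Havcr2fl/fl replicate 1 (9.26 against 6.07 CPM). The means are over a class that the Hb limit made. Members with an Hb share of 0.2% to under 1% had 146 ± 64.2 CPM of Slc4a1 and 31.0 ± 1.94 CPM of Alas2.

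Genes of other lineages were among the lower ones. Camp, Ngp, S100a8 and S100a9, all neutrophil genes, Ighm, Igkc and Iglc1 of immunoglobulins, and Prss34, a basophil protease, were among the 10 with the lowest ratios. All 6 neutrophil and 6 of 6 granulocyte-monocyte progenitor markers were lower. In the progenitor list Cd34, Spi1, Cd27 and Runx1 were lower and none was higher, of 11, and of the stress erythropoiesis list 5 of 11 were lower, among them Id1, Smad1 and Hif1a, and Ptch1 was higher. Carbonic anhydrase and metallothionein genes were higher for 3 of 4 (Car1, Car2 and Mt2) and late erythroid genes for 6 of 13, with Xpo7 lower. Of the EPO receptor list Epor was higher and Pim1 and Lyn lower, of 7. MHC class I held no gene past the rule of 8, G2 and M phase none of 18, and MHC class II genes Cd74 and H2-DMb1 were lower.

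RNA of other lineages was nevertheless found among members. Of the basophil and mast cell markers other than Gata2, 8, 7, 5 and 8 of 9 had a UMI, and they summed to 449, 156, 45.6 and 39.1 CPM, led by Prss34 in Havcr2fl/fl;E8icre/+ libraries (193 and 43.8 CPM) and by Il1rl1 in Havcr2fl/fl libraries (38.4 and 30.1 CPM). Tpsb2 was at 0 in all 4 libraries, and Mcpt8 and Fcer1a were at 0 in Havcr2fl/fl replicate 1. The sums were higher in both Havcr2fl/fl;E8icre/+ libraries. At least 1 of these UMIs was found in 261, 108, 40 and 583 members, and 10 or more in 7, 3, 1 and 1. Granulocyte-monocyte progenitor markers summed to 112, 49.7, 59.9 and 35.3 CPM, neutrophil markers to 270, 11.8, 125 and 97.4 CPM, and monocyte and macrophage markers to 33.9, 5.29, 269 and 32.0 CPM. B and plasma cell markers summed to 12.7, 8.35, 5.95 and 186 CPM, led by Ighm, and megakaryocyte markers to 9.78, 5.01, 10.6 and 6.95 CPM, with Gp6 at 0 throughout. The immunoglobulin genes Igkc and Iglc1 are outside the marker list. In members Igkc had 28.4, 30.1, 26.5 and 2017 CPM and Iglc1 had 3.93, 13.2, 0.331 and 251 CPM, both highest in Havcr2fl/fl replicate 2. T and NK markers summed to 32.1, 32.0, 45.0 and 11.9 CPM, of which Nkg7 made 27.1, 28.8, 41.0 and 7.72 CPM, with the 3 Cd3 genes at 0 by rule and Ncr1 at 0. Scrublet, a doublet caller, marked 0, 0, 0 and 2 members. T and NK markers reached 10 UMIs in 8, 4, 6 and 4 members. Leaving out members with 10 or more UMIs of another lineage left 335, 153, 53 and 1165 of 348, 158, 61 and 1182 members. Havcr2fl/fl replicate 1 thus lost the highest share. The part of this RNA in the results was not tested beyond leaving out these cells.

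Genes above both comparison classes were few. Of 7286 genes measured in both, 45 were at least 2-fold higher in the early class against later cells and against other cells, 6.27% of the 718 and 10.5% of the 429, and 16 of the 45 had at least 50 CPM. By the smaller of the 2 median ratios these were led by Prelid2, Mt2, Lgals9, Fpgs and Mthfd1. Fpgs and Mthfd1 encode enzymes of folate metabolism, and Mthfd1 had 282 ± 49.8 CPM (SD, n = 4) against 76.9 ± 29.4 in later erythroid and 58.0 ± 21.9 in other cells. Eng, a co-receptor of the TGF-beta family, had 62.0 ± 6.87 CPM against 23.3 ± 8.01 and 16.1 ± 4.44. Sphk1, which makes sphingosine 1-phosphate, had 142 ± 18.7 CPM against 58.1 ± 13.2 and 10.9 ± 11.3.

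Lgals9 (ENSMUSG00000001123, chr11:78962974-78984946, minus strand) encodes galectin-9, a ligand of TIM-3, and was the one gene of the TIM-3 list above both classes. It had 1132, 792, 1088 and 844 CPM in early erythroid cells. Later erythroid cells had 418, 208, 256 and 172 CPM, other Cd3-negative cells 256, 155, 95.6 and 292 CPM, and Cd3-positive cells 262, 143, 145 and 290 CPM. The lowest value in the early class lay above the highest of each other class taken whole. Among cells with at least 5000 UMIs, thinned to that number, 98.2%, 95.5%, 96.6% and 94.0% of members had a UMI of it, against 26.4%, 23.7%, 20.2% and 31.5% of later erythroid, 57.4%, 36.4%, 34.3% and 49.0% of other Cd3-negative and 30.4%, 21.7%, 22.0% and 42.3% of Cd3-positive cells. These rest on 340, 155, 59 and 1176 members, 121, 198, 124 and 435 later erythroid and 256, 151, 105 and 337 other Cd3-negative cells. Without thinning the shares were 100%, 99.4%, 100% and 99.4% of members, 34.1%, 24.3%, 27.9% and 38.5% of later erythroid, 70.2%, 58.1%, 65.2% and 59.6% of other Cd3-negative and 28.6%, 26.0%, 29.7% and 25.6% of Cd3-positive cells. Within the early class its mean level went from 1066 ± 176 CPM (SD, n = 4) at an Hb share under 0.05% to 436 ± 185 CPM at 0.2% to under 1%, and erythroid cells just beyond the limit, at 1% to under 10%, had 444 ± 205 CPM. In Havcr2fl/fl replicate 2, with most cells of that bin, it went from 437 to 188 CPM across the limit. Other TIM-3 ligands did not share this pattern. Hmgb1 had 1781 ± 193 CPM in early and 1684 ± 140 CPM in later cells, and Ceacam1 had 0.751 ± 1.05 against 29.7 ± 13.4 CPM in other Cd3-negative cells. Havcr2 itself was near 0 in members (0.175, 0.417, 0.331 and 0.294 CPM), against 43.4, 12.2, 31.8 and 57.8 CPM in Cd3-positive cells.

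**Figure D4:**
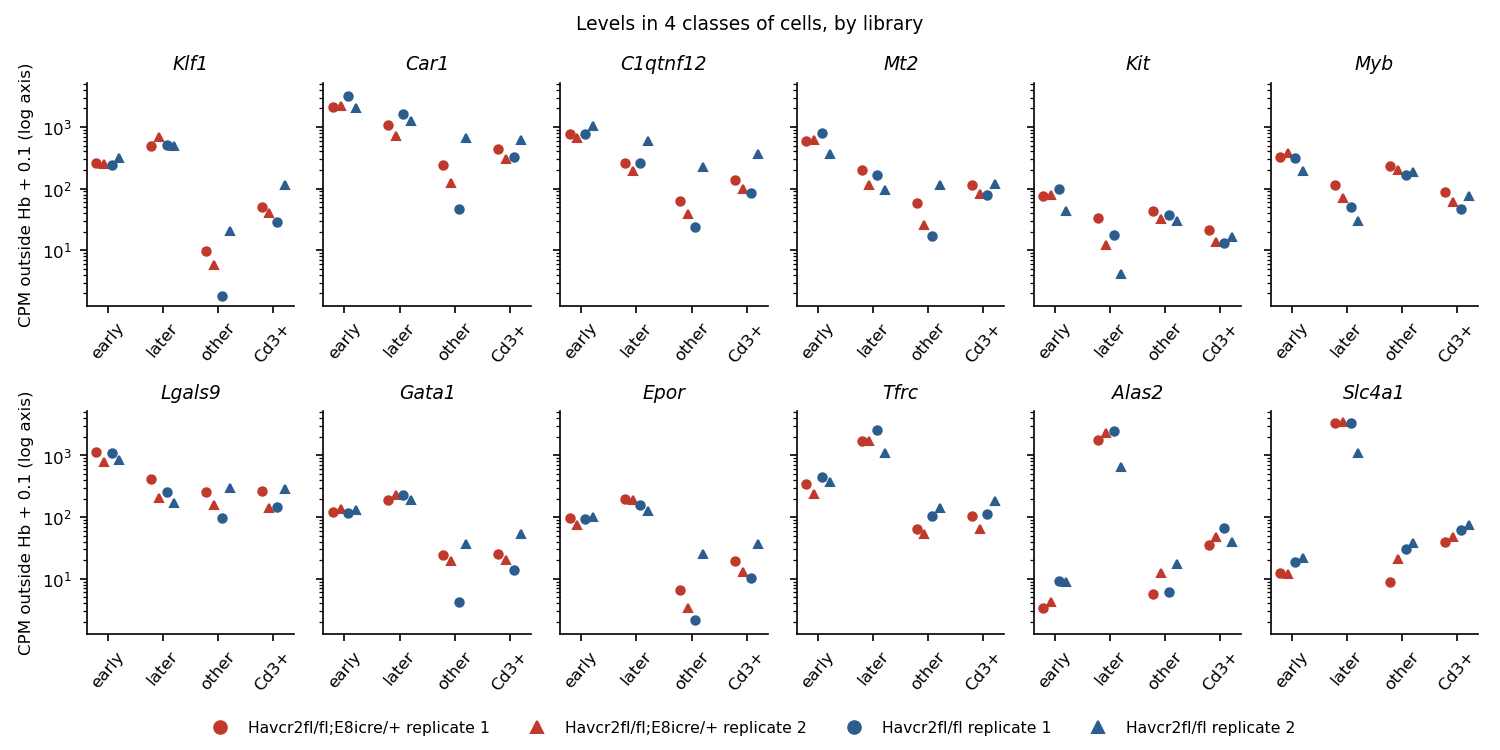
CPM of 12 genes in 4 classes of cells, on a log axis after adding 0.1, 1 point per library (red for Havcr2fl/fl;E8icre/+, blue for Havcr2fl/fl; circles for replicate 1, triangles for replicate 2). Lgals9 lies between 792 and 1132 CPM in early erythroid cells and at most at 418 CPM in the other classes.

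The recipients of Havcr2fl/fl;E8icre/+ and Havcr2fl/fl grafts were then compared within early erythroid cells. The rule did not use the genotype, but it did use the 4 Hb genes. UMIs were summed per library (11461486, 7189846, 3027737 and 27237925) and tested with edgeR, and in such sums fewer cells of a kind and less RNA per cell cannot be told apart. Of 10494 genes 9 were higher (0.0858%) and 9 lower (0.0858%) in Havcr2fl/fl;E8icre/+ recipients at an adjusted p under 0.05, and the median log2 fold change was -0.01. When a library was left out, the counts were 4 and 2 (without Havcr2fl/fl;E8icre/+ replicate 1), 11 and 4 (without its replicate 2), 228 and 163 (without Havcr2fl/fl replicate 1) and 25 and 78 (without its replicate 2). The 9 lower genes include the 4 Hb genes, which are described below without a test. Values for these genes are CPM scaled by edgeR's library factors. Each library was 1 mouse, so that the p-values rest on the spread between 2 mice of a group, which edgeR moderates over all genes. At an unadjusted edgeR p under 0.05, 221 genes were higher and 328 lower. A share of 0.05 of the 10494 genes would pass this limit on average if none differed, and these counts were near that share.

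Of the higher genes, 4 (Xlr, Aldh1l1, Rbm44 and Syce1) were detected almost only in Havcr2fl/fl;E8icre/+ libraries. Xlr, an X-linked lymphocyte-regulated gene (chrX:53777118-53797706), had 26.8 and 41.2 CPM in Havcr2fl/fl;E8icre/+ and no UMI in Havcr2fl/fl libraries, at least 333-fold higher when 3 UMIs are taken as the floor over the group (edgeR adjusted p = 0.000277). Xlr has near-identical copies on the X chromosome, so that its counts are uncertain. Aldh1l1, a folate enzyme (chr6:90486427-90600203), had 23.1 and 18.1 against 0 and 0.150 CPM (log2 fold change 7.17, SE 0.43, edgeR adjusted p = 1.10e-05). Rbm44, an RNA-binding protein of germ cells (chr1:91145089-91170795), had 9.36 and 11.6 against 0 and 0.0375 CPM, that is 196 UMIs against 1, a ratio of 318 (95% counting interval, 56.4 to 12626). Dnah8, a dynein heavy chain on chromosome 17, had 51.7 and 49.0 against 17.9 and 11.6 CPM (log2 fold change 1.87, SE 0.21, edgeR adjusted p = 0.00299). Mid1, a microtubule-associated ubiquitin ligase (log2 fold change 1.33), and Mtln, a mitochondrial micropeptide (1.18), were higher, and the gene model Gm49980 (-2.27) was lower, with edgeR adjusted p of 0.0293, 0.0358 and 0.0293. Slc15a2, Hormad2, Smoc1 and Syce1, named after their values were seen because they complete the 18, were under 5 CPM on average over the libraries. Hormad2 and Smoc1 had no UMI in Havcr2fl/fl;E8icre/+ libraries and were at least 22.0-fold and 23.8-fold lower there. Syce1 had none in Havcr2fl/fl libraries and was at least 27.6-fold higher in the others. Slc15a2 was lower (log2 fold change -3.83, edgeR adjusted p = 0.0215). With at least 1 Klf1 UMI, and with an Hb share under 0.5%, Mid1, Mtln, Gm49980, Slc15a2, Hormad2, Smoc1 and Syce1 were not called. Gm49980 was also not called with at least 3 Klf1 UMIs or without members with 10 or more UMIs of another lineage. When each library was left out in turn, Syce1 was called in 1 of 4 fits, Mtln and Slc15a2 in 2 of 4, Mid1 in 3 of 4, and Hormad2 and Smoc1 in 2 of the 3 in which they could be tested. Aldh1l1, Rbm44, Xlr, Dnah8 and Gm49980 were called in all 4.

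The genotypes were also set side by side in the other classes for the 14 of these genes outside Hb. Groups that did not overlap, in the direction seen in early erythroid cells, were found for 11 of the 14 in Cd3-positive cells, 13 in other Cd3-negative cells and 6 in later erythroid cells. Of the 3228 tested genes outside Hb whose groups lay apart in early erythroid cells, 32.6%, 30.9% and 21.8% did so in these classes. Fcer1a and Cd63 lay apart in the opposite direction in later erythroid cells. Aldh1l1, Rbm44, Xlr, Smoc1 and Mtln lay apart in the same direction in all 4 classes. Xlr, for example, had 20.1 and 22.8 CPM in Cd3-positive cells of Havcr2fl/fl;E8icre/+ and 0 in those of Havcr2fl/fl recipients. The classes come from the same libraries and are not independent. The deletion of Havcr2 and any other genetic difference between the donor lines cannot be told apart here.

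**Figure D5:**
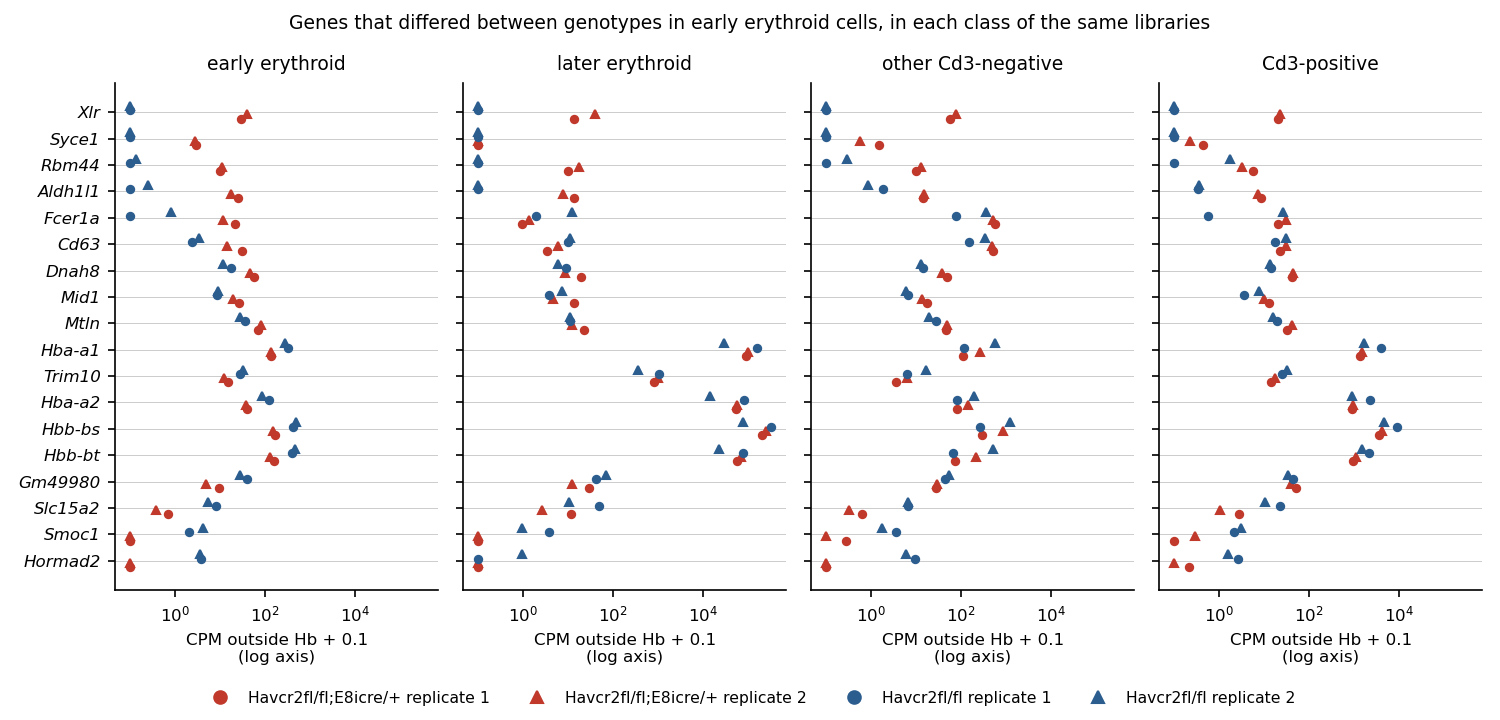
CPM of the 18 genes that differed between genotypes in early erythroid cells, in each of 4 classes of the same libraries, on a log axis after adding 0.1 (red for Havcr2fl/fl;E8icre/+, blue for Havcr2fl/fl; circles for replicate 1, triangles for replicate 2). Of the 14 genes outside Hb, the groups lie apart in the direction seen in early erythroid cells for 6 in later erythroid, 13 in other Cd3-negative and 11 in Cd3-positive cells, against 21.8%, 30.9% and 32.6% of all tested genes that lay apart in early erythroid cells.

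The 4 Hb genes had less RNA in members of Havcr2fl/fl;E8icre/+ recipients, which is given as a description because the Hb share chose the members. Hbb-bs, an adult beta-globin gene, had 156 and 157 against 424 and 508 CPM (log2 fold change -1.57), and Hbb-bt, Hba-a2 and Hba-a1 had log2 fold changes of -1.67, -1.51 and -1.17. Hba-a1 and Hba-a2, and Hbb-bs and Hbb-bt, are near-identical pairs whose reads could be split between copies. Members near the limit, with an Hb share of 0.2% to under 1%, were 22 of 348 and 11 of 158 in Havcr2fl/fl;E8icre/+ and 13 of 61 and 270 of 1182 in Havcr2fl/fl libraries. Cd3-positive cells of the same libraries held 3631, 4090, 9216 and 4641 CPM of Hbb-bs, also lower in both Havcr2fl/fl;E8icre/+ libraries, and the part of free Hb RNA in the difference was not tested. Trim10, a gene of terminal erythroid maturation, was lower too, with 13.6 and 12.5 against 29.0 and 32.7 CPM (log2 fold change -1.25, SE 0.18, edgeR adjusted p = 0.0208). With an Hb share under 0.5% its log2 fold change was -1.16 and it was not called, and it was called in 2 of the 4 fits that left out a library. With that limit the medians of the heme, membrane and late lists described next were -0.34, -0.21 and -0.44.

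Late erythroid lists had mostly negative values without further calls. Of 15 heme genes 14 had a negative log2 fold change and none passed (list median -0.40, against -0.01 over all genes). Alas2 had 3.07 and 4.35 against 9.45 and 9.10 CPM (log2 fold change -1.34, SE 0.32, edgeR adjusted p = 0.265). Of 18 membrane and blood group genes 17 were negative with none passing (-0.26), and of 14 late genes 13 were negative with only Trim10 passing (-0.56). S phase (list median -0.21) and G2 and M phase genes (-0.27) were negative for 18 of 18 each, none passing. Without Havcr2fl/fl replicate 2 the heme, late, membrane, S phase and G2 and M phase medians were -0.19, -0.22, -0.15, -0.08 and -0.11. Klf1, which the rule used, had a log2 fold change of -0.16, given without a test. The markers Car1 (log2 fold change -0.31, edgeR adjusted p = 0.982), C1qtnf12 (-0.39, 0.981) and Mt2 (0.03, 0.999) did not pass, nor did Lgals9 (-0.07, SE 0.23, edgeR adjusted p = 0.994). Progenitor genes were positive for 8 of 11 with none passing (list median 0.14), and without Havcr2fl/fl replicate 2 for 2 of 11 (list median -0.36).

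Fcer1a, a chain of the IgE receptor of basophils and mast cells, had 20.1 and 12.03 against 0 and 0.712 CPM (log2 fold change 4.73, SE 0.53, edgeR adjusted p = 0.0215). Cd63, a granule membrane protein, had 27.9 and 14.9 against 2.36 and 3.37 CPM (log2 fold change 2.79, SE 0.35, edgeR adjusted p = 0.0258). Of the basophil and mast markers 8 could be tested, and all 8 had positive log2 fold changes, with a median of 3.42, while only Fcer1a passed. Il1rl1, the most abundant of them in Havcr2fl/fl members, had a log2 fold change of 0.26. After members with 10 or more UMIs of another lineage were left out, an alternative chosen after seeing the data, Fcer1a had too few UMIs left to be tested. Of the markers 5 could be tested, with a median of 0.24. The removal itself counted UMIs of these markers, so that their lower median and the loss of Fcer1a were built in. Without the same members Cd63 had a log2 fold change of 0.82 and was not called. The call of Cd63 thus depended on these members. Neither Fcer1a nor Cd63 was called without the cells of the highest doublet scores or with at least 3 Klf1 UMIs. Both also lost their call with at least 1000 genes and at most 5% mitochondrial UMIs per cell. Across the alternatives that could test them, Fcer1a was called in 10 of 15 and Cd63 in 9 of 16. When each library was left out in turn, Fcer1a was called in 3 of 4 fits and Cd63 in 2 of 4.

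The genotype effect was also compared between classes. Against later erythroid cells 6 of 10133 genes (0.0592%) had a different effect, and against other Cd3-negative cells 0 of 11461 (0%) did by edgeR, where 184 were higher and 116 lower at an unadjusted p under 0.05. Such counts lay below a share of 0.05 of the tested genes in both contrasts. In the contrast with later erythroid cells, 142 genes were higher and 247 lower by edgeR at an unadjusted p under 0.05. Without the cells of the highest doublet scores, 0 genes of that contrast were higher and 1 lower. There, 182 and 297 had an unadjusted edgeR p under 0.05. With at least 3 Klf1 UMIs 1 was higher and 1 lower in the same contrast. Both contrasts had more calls when either Havcr2fl/fl library was left out, as given in the last section. The 6 were Mcpt8, Ctsg, Fcer1a and Prss34, genes of basophils and granule-bearing myeloid cells, Iglc1, an immunoglobulin light chain, and Slfn14. Of these only Slfn14, which encodes a ribosome-associated endoribonuclease of the platelet and red cell lineages, is an erythroid gene, and in members it was under 3 CPM in all 4 libraries.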

How the data were processed

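Single-cell RNA of spleen cells from 4 recipients (2 per donor genotype) was analysed. Per the submitters' processing notes, the authors used Cell Ranger 6.1.2 and the mm10 build, and the deposited values are whole-number UMI counts per gene and barcode, together with counts of the H-2Kb tag, not normalized; the annotation release is not given in the sources used here. The members and gene lists were chosen with earlier results of these data known.

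UMIs were summed per library and class with Python 3.11.15, NumPy 2.4.6 and pandas 2.3.3. Between classes, CPM outside the 4 Hb genes were compared as log2 ratios per library (1 CPM added), and genes 2-fold apart in all 4 libraries were counted among those with a mean of at least 10 CPM in either class. Between genotypes, sums were tested with edgeR 4.0.16 in R 4.3.3 (TMM, filterByExpr, robust quasi-likelihood fit, Benjamini-Hochberg adjustment over all genes tested, threshold 0.05), and differences in the genotype effect with an interaction term and mouse as a block. The scripts were tested on simulated data. Shares were compared with SciPy 1.17.1. Genes named were those of the lists, the 10 with the highest and lowest median log2 ratio in each class contrast (at least 50 CPM in the higher class), and up to 10 genes per direction called between genotypes with groups that did not overlap and a mean of at least 5 CPM over the libraries. Doublets were kept in the main analysis. Scrublet (Scanpy 1.11.5) called 2, 5, 9 and 109 kept cells, few for 3 of the libraries, so that the highest-scoring cells at 0.8% per 1000 barcodes were also left out as an alternative. Depth was 17693991 to 55045903 UMIs per library. Other filters, DESeq2 1.42.0, pseudocounts, thresholds, the replicate block and leaving out each library were tried as alternatives. Gene positions are from GENCODE M21 on GRCm38. Some members of the lists are counted but not reported here by name.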

Additional observations from a re-analysis of the deposited data

Results flagged for a closer look

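Fitted genotype effects differed between early and later erythroid cells for 6 genes (edgeR interaction term, values as a difference of log2 fold changes, early minus later). Mcpt8, a basophil protease, differed by 9.89 (adjusted p = 2.50e-06). Its levels in the library order of the report were 143, 37.3, 0 and 3.46 CPM in early cells and 2.54, 1.93, 1.83 and 95.6 CPM in later cells. The groups lay apart in the early class, and in the later class only Havcr2fl/fl replicate 2 was high. Prss34 differed by 9.47 (adjusted p = 0.00985), Fcer1a by 7.87 (adjusted p = 0.000627) and Ctsg, cathepsin G, by 6.40 (adjusted p = 0.000627). In later cells all 3 were likewise highest in Havcr2fl/fl replicate 2, at 196, 12.4 and 22.7 CPM. Iglc1, an immunoglobulin light chain gene, differed by -5.54 (adjusted p = 2.68e-05), with 3.93, 13.2, 0.331 and 251 CPM in early and 20.3, 69.0, 0 and 31.7 CPM in later cells. Slfn14 differed by -3.84 (adjusted p = 0.0392), with 0.175, 0.139, 2.31 and 0.625 CPM in early and 551, 718, 591 and 156 CPM in later cells. Without the cells of the highest doublet scores, 0 genes were higher and 1 was lower. Basophil and mast cell markers reached 10 UMIs in 7, 3, 1 and 1 early cells and in 0, 1, 0 and 2 later cells. Apart from Slfn14 these are genes of other lineages, and the part of other cells or free RNA in the differences was not tested.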

How the results depend on the processing

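In the contrast with later erythroid cells, the 718 higher genes became 428 with 5 CPM added and 1362 with Hb counted in the total, where the median log2 ratio of all genes moved from 0.43 to 0.96, and 728 to 1245 when each library was left out in turn (1245 without Havcr2fl/fl replicate 2). In the contrast with other Cd3-negative cells, the 429 higher genes became 215 with at least 3 Klf1 UMIs and 451 to 645 when each library was left out (645 without Havcr2fl/fl replicate 2). In both contrasts, leaving out a library asks for the 2-fold difference in fewer libraries, so that a rise in these counts was largely built in. Between genotypes, the 9 higher and 9 lower genes became 40 and 54 with no filter on low counts, 13 and 10 with DESeq2, 5 and 2 with an Hb share under 0.5%, 4 to 228 higher and 2 to 163 lower when each library was left out, and, chosen after seeing the data, 20 and 20 without members with 10 or more UMIs of another lineage. The lower genes became 3 with at least 1 Klf1 UMI, and the higher genes 5 with at least 1000 genes and at most 5% mitochondrial UMIs per cell. With the replicate number as a block, 12 were higher and 18 lower, and the 18 genes of the unblocked fit were all among them. Replicates that share a number did not deviate together (r = -0.03 over 10494 genes) and share only a number. All 18 genes kept their sign under the 16 alternatives in which they could be tested. Aldh1l1, Rbm44, Xlr and Dnah8 were called under each of the 16.

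The 4 higher and 2 lower genes of the interaction with later cells became 8 and 51 with no filter, 1 and 1 with at least 3 Klf1 UMIs, 0 and 1 without the highest doublet scores, and 4 to 18 and 1 to 359 when each library was left out (18 and 359 without Havcr2fl/fl replicate 1, 17 and 13 without Havcr2fl/fl replicate 2). The lower genes became 1 with DESeq2 size factors and 1 with at least 1 Klf1 UMI. Against other Cd3-negative cells, 0 and 0 became 0 and 1 with no filter, and 0 to 215 higher and 0 to 162 lower when each library was left out (215 and 46 without Havcr2fl/fl replicate 1, 29 and 162 without Havcr2fl/fl replicate 2). Leaving out each library moved the genotype difference in the share of Cd3-negative cells from -18.8 to 13.5 (reversed at 4.33 without Havcr2fl/fl;E8icre/+ replicate 2 and 13.5 without Havcr2fl/fl replicate 2) and in the share of kept cells from -18.5 to 3.14 percentage points (reversed at 3.14 without Havcr2fl/fl replicate 2). The log2 fold change of Lgals9 ranged from -0.24 to 0.12 and that of Klf1 from -0.35 to 0.079, with the sign reversed at 0.09 and 0.12 (Lgals9 without Havcr2fl/fl;E8icre/+ replicate 2 and without Havcr2fl/fl replicate 1) and at 0.079 (Klf1 without Havcr2fl/fl replicate 2). The causes were not tested. A removal leaves 1 library in a group, which is assumed to vary like the other. With 61 members in Havcr2fl/fl replicate 1, genes of a few UMIs could not be compared there.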
